A study of Mus musculus with 6 samples.

Results

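The CD300 receptors were described in RNA-seq data of mouse dendritic cells cultured with or without DB2313. The set was defined by gene name and held 7 genes, Cd300a, Cd300c2, Cd300e, Cd300lb, Cd300ld, Cd300lf and Cd300lg, of 54532 genes in the count table. The rule used gene names and no measured value, but it was set with earlier results of these data known. Altogether 12 rows of the table carried a Cd300 name, and the 5 others, Cd300c and Cd300ld2 to Cd300ld5, are given where they bear on the members.

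CD300 receptors are surface proteins of myeloid cells with a single immunoglobulin-like domain outside the cell, and several of them bind lipids exposed on dying cells, such as phosphatidylserine. They work as paired receptors. Inhibitory members carry tyrosine motifs in their own tail that recruit phosphatases, whereas activating members have short tails and signal through adaptor proteins such as Tyrobp (DAP12) and Fcer1g (the Fc receptor gamma chain). In dendritic cells, macrophages and mast cells the balance of the 2 kinds is known to tune the uptake of dying cells and the strength of inflammatory responses.

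There were 3 control libraries and 3 libraries of cells treated with DB2313, a small molecule that the study used as an inhibitor of the transcription factor Spi1 (PU.1). The dose and duration were not given in the labels, nor were the strain, sex and age of the mice, and nothing stated whether the libraries came from separate cultures or animals, so p-values measure only the spread between these libraries, which may be technical. The control columns of the table were named BMDC and the others SPI1, and every direction below rests on reading the latter as the DB2313 libraries. The complement genes C1qa, C1qb and C1qc, whose dependence on Spi1 the study examined, had log2 fold changes of -0.97, -0.35 and -0.51 in the SPI1 columns against the BMDC columns. The cells were dendritic cells by their labels, but macrophages were the subject of the study's text.

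Library totals lay between 16146743 and 19764677 counts. Of the dendritic cell markers, Cd74 (mean 6557 counts per 1000000, CPM, in control), H2-Ab1 (1310 CPM), Ccr7 (1535 CPM), Irf8 (273 CPM) and Flt3 (33.0 CPM) were well above 0. Xcr1 (1.04 CPM), Clec9a (0.769 CPM) and Cd209a (0.0209 CPM) were at or near 0. Markers of other cells were present too. Here and below, rose and fell mean an adjusted p under 0.05 (edgeR). Of all genes tested, 4.66% passed upward and 5.94% downward. The summed level of 12 macrophage markers was 10233 to 11581 CPM in control and 9145 to 10020 CPM in DB2313 libraries, and 1 rose and 7 fell. The sum of 12 neutrophil markers was 4841 to 5317 CPM in control and 5217 to 6505 CPM with DB2313 (4 rose, 1 fell), and that of 10 mast cell and basophil markers was 2519 to 2720 CPM and 2568 to 3079 CPM (2 of 8 tested rose, none fell). The 14 dendritic cell markers summed to 10286 to 10563 CPM in control and 8642 to 10200 CPM with DB2313, and 1 rose and 3 fell of 13 tested. Itgax (172 to 116 CPM), Irf4 (152 to 113 CPM) and Batf3 (106 to 71.5 CPM) fell. The rise was that of Clec9a, near 0 in control, with 10, 10 and 17 counts there and 42, 64 and 72 with DB2313. T cell markers summed to 181 to 205 CPM in control and 186 to 263 CPM with DB2313 (1 of 8 rose, none fell), and B cell, fibroblast and erythroid markers to less than 7 CPM in any library. CD300 receptors are made by several of these cell types. The part of these shifts in the results below was not tested, and in bulk RNA fewer cells of a type and less RNA per cell cannot be told apart.

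All coordinates are on mouse chromosome 11 of GRCm38, and 6 of the 7 members lay in 1 cluster. Cd300a (ENSMUSG00000034652) was at 114890041 to 114904654 on the plus strand. On the minus strand followed Cd300lb (ENSMUSG00000063193, 114922781 to 114934386), Cd300ld (ENSMUSG00000034641, 114982274 to 114989922), Cd300c2 (ENSMUSG00000044811, 114996721 to 115001880), Cd300e (ENSMUSG00000048498, 115051917 to 115062177) and Cd300lf (ENSMUSG00000047798, 115116214 to 115133992). Cd300lg (ENSMUSG00000017309, 102041509 to 102055620, plus strand) stood apart from the cluster. Cd300lf lay within Rab37, which is read from the opposite strand, but their exons shared 0 bp.

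In 2 pairs of members, the exon that encodes the immunoglobulin-like domain is a near copy in the partner, so that reads from it can match 2 genes. The transcripts of the inhibitory Cd300a and the activating Cd300c2 were 93.9% identical over a stretch of 362 bases, with a longest identical run of 140 bases. Those of the inhibitory Cd300lf and the activating Cd300ld were 94.8% identical over 349 bases, with a run of 134 bases. A window of 120 bases in exon 2 is shown for each gene of both pairs because each window is the same, letter for letter, in an inhibitory and an activating receptor. They are given 5′ to 3′ on the coding strand, in lower case throughout.
Cd300a, chr11:114893466-114893585 (plus strand): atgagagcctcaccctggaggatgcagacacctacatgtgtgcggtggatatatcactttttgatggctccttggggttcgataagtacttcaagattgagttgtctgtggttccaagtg
Cd300c2, chr11:115000638-115000757 (minus strand): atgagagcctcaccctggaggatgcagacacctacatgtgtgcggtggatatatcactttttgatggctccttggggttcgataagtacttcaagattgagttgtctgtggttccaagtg
Cd300lf, chr11:115126157-115126276 (minus strand): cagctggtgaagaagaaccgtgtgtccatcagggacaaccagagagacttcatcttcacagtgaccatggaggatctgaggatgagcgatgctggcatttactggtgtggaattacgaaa
Cd300ld, chr11:114987349-114987468 (minus strand): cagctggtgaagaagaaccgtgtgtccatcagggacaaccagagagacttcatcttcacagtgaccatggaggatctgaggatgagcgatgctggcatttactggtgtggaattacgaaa
How reads with several matches were counted is not given in the sources used here, so the counts of these 4 genes are uncertain to the extent that such reads were dropped or split. Other genes share stretches with them as well. Cd300ld was 88.1% to 89.5% and Cd300lf 90.9% to 91.5% identical to Cd300ld2 to Cd300ld5. Cd300a also matched genes outside the family, such as Ggnbp1 (95.2% over 189 bases).

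Because DB2313 was used as an inhibitor of Spi1, the promoters of the members were searched for GAGGAA, the core that Spi1 is known to bind, on both strands, and for the longer GAGGAAGT, which contains it. RefSeq windows of 300 bases (GRCm38.p6), from 250 bases before the start to 50 bases after it, were found for 6 of the 7 members. GAGGAA was in 4 of the 6 windows, beside 28.3% of 32851 windows of all genes, and GAGGAAGT in 2 of the 6, those of Cd300ld and Cd300lf, beside 3.2% of all windows. The surroundings of 1 site of each of the 4 genes are shown, on the gene's own strand, with the core or its reverse complement in capitals.
Cd300a, chr11:114889977-114890032 (plus strand): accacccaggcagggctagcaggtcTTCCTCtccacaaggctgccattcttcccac
Cd300ld, chr11:114989999-114990054 (minus strand): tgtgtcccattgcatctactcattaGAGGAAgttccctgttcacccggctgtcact
Cd300c2, chr11:115001930-115001985 (minus strand): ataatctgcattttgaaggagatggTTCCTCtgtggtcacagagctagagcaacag
Cd300lf, chr11:115134005-115134060 (minus strand): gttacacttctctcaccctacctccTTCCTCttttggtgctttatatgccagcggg
The sites lay 39 bases before the start in Cd300a, 143 in Cd300ld, 80 in Cd300c2 and 43 in Cd300lf, which held a GAGGAAGT at its start base as well. The windows of Cd300lb and Cd300e did not hold these letters. A match is a description of the letters only, and binding was not measured.

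The members differed widely in level. Per kb of gene length, which allows levels to be compared between genes, Cd300c2 was the highest in control libraries (41.0 ± 3.18 CPM per kb, SD, n = 3), above 91.5% of all genes tested over both groups. Cd300lb (29.2 ± 3.45 CPM per kb), Cd300lf (25.2 CPM per kb) and Cd300a (24.8 CPM per kb) followed, and the ranges of the 3 libraries overlapped between each of these and the next. Cd300ld (8.81 ± 0.837 CPM per kb) and Cd300lg (2.73 CPM per kb) were lower, and Cd300e was near 0. The order was the same with DB2313, with means of 50.1, 28.7, 27.1, 22.8, 12.0 and 2.55 CPM per kb from Cd300c2 to Cd300lg. The ranges of Cd300lb and Cd300lf overlapped there too, while those of Cd300lf and Cd300a did not.

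With DB2313, 2 of the 6 members that could be tested rose, Cd300c2 and Cd300ld, and none fell. Both are activating receptors and both changes were small, 1.22-fold for Cd300c2 (95% interval 1.08 to 1.38) and 1.37-fold for Cd300ld (1.15 to 1.63). The inhibitory members Cd300a and Cd300lf, the activating Cd300lb and Cd300lg did not pass the test. Of all 14174 genes tested, 4.66% were called higher and 5.94% lower (edgeR quasi-likelihood test, adjusted p under 0.05). The groups did not overlap in 3 of the 6 members tested, beside 27.4% of all genes. The median log2 fold change was 0.040 over the members and 8.2e-04 over all genes. Cd300e was below the filter on low counts.

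**Figure D1:**
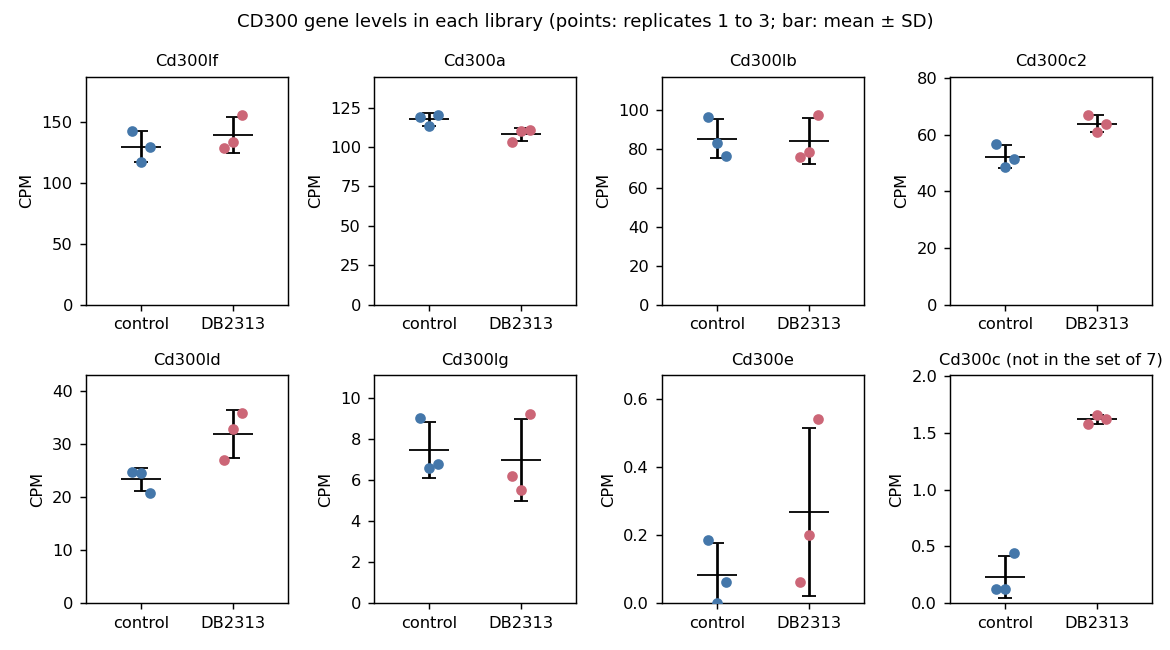
Level of each CD300 member in the 6 libraries in TMM-scaled CPM, with 1 point per library and the mean ± SD of 3 libraries for control and DB2313. The 3 DB2313 points lie above all control points for Cd300c2 and Cd300ld and below them for Cd300a, and the groups overlap for the other members. Cd300c, drawn last, is a related gene outside the set.

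Cd300c2 (CLM-4) is an activating receptor that signals through adaptors. In replicates 1 to 3 it had 922, 776 and 823 counts without the compound and 1103, 1216 and 1060 with it. In CPM these were 56.7, 48.7 and 51.6 in control and 67.0, 61.0 and 63.7 with DB2313. The lowest DB2313 library was above the highest control library. The mean went from 52.3 ± 4.05 to 63.9 ± 3.00 CPM (SD, n = 3), a log2 fold change of 0.29 ± 0.09 (SE) with an adjusted p of 0.0432 (edgeR). The call was narrow. It was lost without control replicate 1 (log2 fold change 0.35, edgeR adjusted p = 0.0507), 2 (0.24, 0.197) or 3 (0.28, 0.140) and without DB2313 replicate 1 (0.25, 0.0681) or 2 (0.32, 0.0957), and with an offset for gene length (0.22, 0.0842).

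Cd300ld (CLM-5) is an activating receptor that signals through Fcer1g. Its counts were 402, 390 and 331 in control and 444, 655 and 595 in DB2313 libraries. The CPM values were 24.7, 24.5 and 20.8 in control and 27.0, 32.8 and 35.8 with DB2313. Every DB2313 library was higher than every control library, by least in DB2313 replicate 1. The mean went from 23.3 ± 2.21 to 31.9 ± 4.48 CPM (SD, n = 3), with a log2 fold change of 0.45 ± 0.12 and an adjusted p of 0.0237 (edgeR). This call was kept with the length offset and lost without control replicate 1 (0.50, edgeR adjusted p = 0.0592), 2 (0.49, 0.0603) or 3 (0.38, 0.119) or DB2313 replicate 2 (0.43, 0.109).

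Cd300lb (CLM-7) is an activating receptor coupled to Tyrobp. Its CPM values were 96.0, 82.8 and 76.3 in control and 75.8, 78.2 and 97.2 with DB2313. The groups overlapped throughout, with the lowest and the highest value both in the DB2313 group. The log2 fold change was -0.023 ± 0.11 (95% interval -0.25 to 0.20, edgeR adjusted p = 0.931), and its sign turned with scaling by library totals (0.0012) and without control replicate 1 (0.074) or DB2313 replicate 1 (0.043) or 2 (0.025).

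Cd300e (CLM-2), an activating receptor of monocytes, had 3, 0 and 1 counts in control and 1, 4 and 9 in DB2313 libraries. These lie at or around the floor of 3 counts in all but 2 libraries, and no fold change is given. At this depth a difference in Cd300e was not detectable.

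Cd300a (CLM-8) is an inhibitory receptor for phosphatidylserine and phosphatidylethanolamine that recruits the phosphatase Ptpn6 (SHP-1). Its CPM values were 119, 113 and 120 in control and 103, 110 and 111 with DB2313. All DB2313 libraries were below all control libraries. The means were 118 ± 3.91 and 108 ± 4.14 CPM (SD, n = 3), and the log2 fold change of -0.12 ± 0.07 did not pass (95% interval -0.27 to 0.033, edgeR adjusted p = 0.349).

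Cd300lf (CLM-1) is an inhibitory receptor that binds phosphatidylserine and ceramide and is the entry receptor of murine norovirus. It had the most counts of the members, with CPM values of 143, 118 and 129 in control and 129, 134 and 156 with DB2313. The groups overlapped. The means were 130 ± 12.7 and 140 ± 14.5 CPM (SD, n = 3), with a log2 fold change of 0.10 ± 0.09 (95% interval -0.088 to 0.30, edgeR adjusted p = 0.547).

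Cd300lg (CLM-9, nepmucin) is known from endothelial cells, where it takes part in the binding of lymphocytes. It was low here, with 147, 105 and 108 counts in control and 102, 110 and 154 in DB2313 libraries. The CPM values were 9.04, 6.59 and 6.77 in control and 6.19, 5.52 and 9.25 with DB2313, and the groups overlapped. The log2 fold change was -0.10 ± 0.22 (95% interval -0.56 to 0.36, edgeR adjusted p = 0.834), and its sign turned without control replicate 1 (0.061) or DB2313 replicate 2 (0.050). Of the endothelial markers Pecam1 and Vwf were at 48.9 and 46.9 CPM in control and 50.0 and 48.1 CPM with DB2313, whereas Cdh5, Emcn and Madcam1 were under 1 CPM, and Sox17 and Glycam1 had no count.

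**Figure D2:**
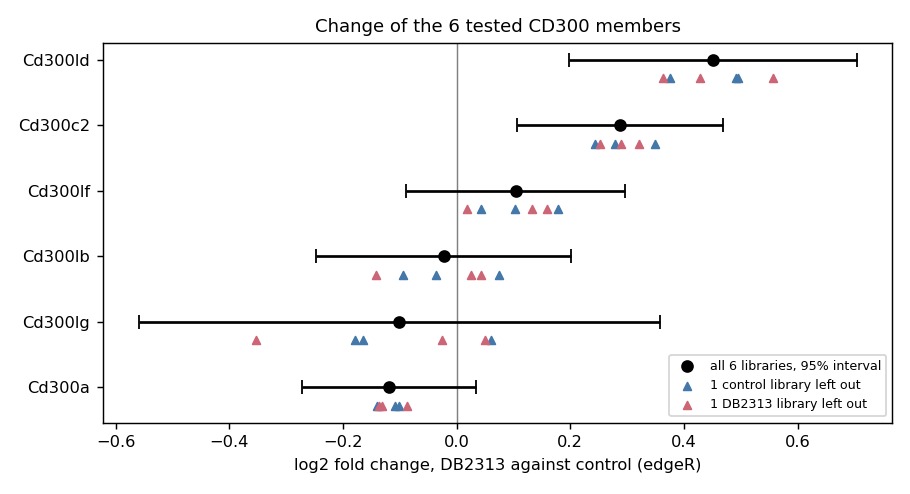
Log2 fold change of the 6 tested members, DB2313 against control, with circles and bars for the value and 95% interval from edgeR over 6 libraries, and triangles for the values with 1 control or 1 DB2313 library left out. The intervals of Cd300c2 and Cd300ld lie above 0, those of the 4 other members cross it, and the triangles of Cd300lb and Cd300lg lie on both sides of 0.

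In Cd300lb, Cd300lf and Cd300lg the highest control value was in replicate 1 and the highest DB2313 value in replicate 3. In Cd300c2 these places were held by control replicate 1 and DB2313 replicate 1. The rise of Cd300ld was largest in DB2313 replicate 3, so the 2 members that rose did not share the same highest library.

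The make-up of the family is described here with no test. As a share of the 7 members' summed CPM per kb, Cd300c2 was 31.1% ± 0.598 in control and 35.0% ± 2.88 with DB2313 (SD, n = 3), and Cd300ld was 6.70% ± 0.640 and 8.38% ± 0.856. The mean shares of Cd300a (18.9% ± 1.17 and 15.9% ± 0.808) and Cd300lb (22.1% ± 1.37 and 19.9% ± 1.48) were lower with DB2313, and that of Cd300lf was 19.1% ± 0.751 and 18.9% ± 0.760. The groups did not overlap for Cd300c2 and Cd300a. They overlapped for Cd300ld (7.404% in control replicate 2, 7.395% in DB2313 replicate 1), Cd300lb (20.5% in control replicate 3, 21.6% in DB2313 replicate 3) and Cd300lf. Shares sum to a whole, so a higher share of 1 member lowers the others. The sum of the 7 was 132 ± 9.81 CPM per kb in control and 143 ± 9.25 with DB2313, a difference close to the spread between libraries.

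**Figure D3:**
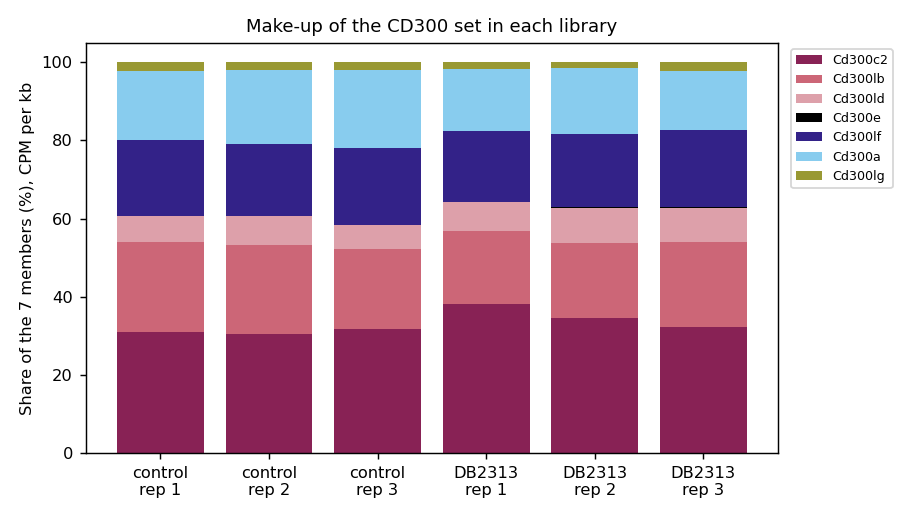
Share of each member in the summed CPM per kb of the 7 members, in percent, with 1 stacked bar per library. Cd300c2 takes 30.6% to 31.8% in the control bars and 32.4% to 38.1% in the DB2313 bars, and Cd300e is too small to be seen.

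The inhibitory members together, Cd300a and Cd300lf, summed to 50.0 ± 3.14 CPM per kb in control and 50.0 ± 3.49 with DB2313. The 4 activating members Cd300c2, Cd300e, Cd300lb and Cd300ld summed to 79.0 ± 6.76 and 91.0 ± 5.33 CPM per kb. The ratio of inhibitory to activating was 0.610, 0.616 and 0.678 in control and 0.528, 0.566 and 0.554 in DB2313 libraries. Every DB2313 library was lower than every control library, with means of 0.635 ± 0.0376 and 0.549 ± 0.0195 (SD, n = 3). In raw counts, with no division by gene length, the ratio was 1.48, 1.48 and 1.68 in control and 1.37, 1.42 and 1.35 with DB2313. The inhibitory sum was the larger there, so which sum was larger depended on the division by length. The ratio is a score over members chosen with results of these data known, so it is given with no p-value. With 3 libraries against 3, an exact permutation test could not have gone below 0.1.

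The near-identical pairs were summed, a step chosen after the values were seen. Cd300a and Cd300c2 together had 176, 162 and 172 CPM in control and 170, 171 and 175 CPM with DB2313, and the means, 170 ± 7.34 and 172 ± 2.25, differed by less than the spread. Within this sum Cd300a was lower by 9.35 CPM and Cd300c2 higher by 11.6 CPM with DB2313. Cd300c2 had 0.475, 0.431 and 0.429 counts per count of Cd300a in control and 0.648, 0.553 and 0.574 with DB2313. Cd300lf and Cd300ld together had 168, 142 and 150 CPM in control and 156, 167 and 192 CPM with DB2313, with overlapping groups. The part of shared reads in these values was not tested.

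Among the related rows outside the set, Cd300c (ENSMUSG00000058728, 114956116 to 114969157, minus strand) was the one that passed the filter, and did so only through the DB2313 libraries. It had 2, 2 and 7 counts in control and 26, 33 and 27 with DB2313. The groups were far apart, at 0.229 ± 0.182 and 1.62 ± 0.0383 CPM (SD, n = 3). A gene that enters the fit through its higher group is in part selected for a difference, so its values are given as a description with no test and no fold. The transcripts of Cd300c and Cd300c2 were 86.9% identical over a stretch of 435 bases. Cd300c counts were 0.217% to 0.851% of those of Cd300c2 in control libraries and 2.357% to 2.714% with DB2313. Cd300ld2, Cd300ld3, Cd300ld4 and Cd300ld5 had at most 11 counts in any library and were not tested. Transcripts of Cd300ld3, Cd300ld4 and Cd300ld5 were 98.8% to 99.9% identical over 852 bases, so most of their reads can match several genes. Their low counts are uncertain to the extent that such reads were dropped.

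The adaptors of the activating members were abundant. Tyrobp, the adaptor of Cd300lb, had 404 CPM in control and 468 CPM with DB2313, a log2 fold change of 0.21 ± 0.06 (edgeR adjusted p = 0.0494). Fcer1g had 396 and 452 CPM (0.19 ± 0.09, 0.199) and Hcst (DAP10) 13.2 and 17.6 CPM (0.41 ± 0.16, 0.121), and neither passed. So 1 of the 3 adaptors rose and none fell, with a list median of 0.21, beside 4.66% and 5.94% of all genes. The Tyrobp call was lost with the length offset (0.11, edgeR adjusted p = 0.348) and without any 1 control library or DB2313 replicate 2 (adjusted p 0.140 to 0.239). Without DB2313 replicate 3, Fcer1g (0.29, 0.0038) and Hcst (0.53, 0.0175) passed.

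Of 20 kinases and signal proteins downstream of the adaptors, 3 fell and none rose (median -0.053), beside 5.94% and 4.66% of all genes. Those were Src, a kinase that phosphorylates such receptors (-0.32 ± 0.08, edgeR adjusted p = 0.0205), the scaffold Blnk (-0.51 ± 0.12, 0.0121) and Pik3cd, a catalytic subunit of phosphoinositide 3-kinase (-0.24 ± 0.06, 0.0288). Syk, the kinase that binds phosphorylated adaptors, was at -0.038 (0.803). Each of the 3 calls was lost without control replicate 1 or 2 or DB2313 replicate 2, and those of Src and Pik3cd also without control replicate 3, with an adjusted p of up to 0.154. Of the 5 phosphatases and kinases that act for inhibitory members, Inppl1 (SHIP2), a lipid phosphatase, fell from 71.5 to 53.7 CPM (-0.41 ± 0.08, edgeR adjusted p = 0.00396). The other 4 did not pass, namely Ptpn6 (0.11 ± 0.07, 0.329), Ptpn11 (SHP-2, -0.16 ± 0.07, 0.186), Inpp5d (SHIP1, -0.058, 0.665) and Csk (0.0077, 0.964), and the sign of Csk turned without control replicate 3 or DB2313 replicate 2. The median of this list was -0.058, and 5.94% of all genes were called lower.

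Some CD300 members are known to act on the signals of other receptors. Of 9 such genes 1 rose and 3 fell (median -0.077), beside 4.66% and 5.94% of all genes. Cd14, which hands lipopolysaccharide to Tlr4, fell from 171 to 92.8 CPM (-0.88 ± 0.08, edgeR adjusted p = 6.4e-06), and Ly96 (MD-2), the Tlr4 partner, fell from 9.11 to 4.31 CPM (-1.08 ± 0.22, edgeR adjusted p = 0.0044). Tlr4 itself was at -0.077 (0.822). Il4ra, the interleukin-4 receptor chain, fell from 367 to 313 CPM (-0.23 ± 0.07, 0.0401), and Fcer1a, the IgE-binding chain, rose from 70.5 to 88.9 CPM (0.34 ± 0.09, 0.0244). The calls of Cd14 and Ly96 were kept in all 15 alternatives. That of Il4ra was lost with library totals (edgeR adjusted p = 0.0589), with no filter on low counts (0.0532) and without any 1 control library or DB2313 replicate 2 (up to 0.236), and that of Fcer1a without any 1 library other than DB2313 replicate 3 (up to 0.11). Cd14 is also on the list of macrophage markers and Fcer1a on that of mast cell and basophil markers, which moved as given above.

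Receptors that share phosphatidylserine and dying cells as ligands with the CD300 family moved in both directions. Of 18 genes for apoptotic cell receptors and bridging proteins, 15 were tested, 4 rose and 2 fell (median 0.20). Over all genes, 4.66% rose and 5.94% fell. Trem2, a lipid receptor that signals through Tyrobp, rose from 111 to 151 CPM (0.44 ± 0.07, edgeR adjusted p = 0.00132). Cd36, a scavenger receptor, rose by 0.35 ± 0.09 (0.019), Itgb3, an integrin chain, by 0.34 ± 0.08 (0.00948), and Mfge8, which bridges phosphatidylserine to integrins, by 0.32 ± 0.08 (0.0153) on the log2 scale. Stab1, a scavenger receptor for phosphatidylserine, fell (-0.40 ± 0.09, 0.00895), as did Pros1, a bridging ligand of Mertk (-0.90 ± 0.20, 0.00948). Trem2 passed in all 15 alternatives. The other calls were each lost without at least 1 library, namely control replicate 2 or 3 for Cd36 (edgeR adjusted p up to 0.121), control replicate 3 for Itgb3 (0.0709), control replicate 1 or 3 or DB2313 replicate 2 for Mfge8 (up to 0.0993), control replicate 1 or DB2313 replicate 2 for Stab1 (up to 0.0684) and control replicate 1 for Pros1 (0.0735). Of 8 genes listed for phosphatidylserine exposure, 1 rose and none fell (median -0.092). It was Plscr3, named as a phospholipid scramblase, from 30.9 to 47.2 CPM (0.61 ± 0.09, edgeR adjusted p = 4.6e-04). Whether Plscr3 acts on phosphatidylserine at the cell surface was not tested.

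Of 18 other paired receptors of myeloid cells, 3 rose and 2 fell (median 0.071), beside 4.66% and 5.94% of all genes. The inhibitory Fc receptor Fcgr2b rose from 135 to 187 CPM (0.48 ± 0.08, edgeR adjusted p = 0.00165), the inhibitory lectin Clec12a from 94.9 to 130 CPM (0.46 ± 0.07, 7.2e-04) and the collagen receptor Lair1 from 51.0 to 65.0 CPM (0.35 ± 0.08, 0.0102). Sirpa, the receptor of Cd47, fell from 671 to 564 CPM (-0.25 ± 0.06, edgeR adjusted p = 0.019), and Cd200r1, the receptor of Cd200, from 87.4 to 64.8 CPM (-0.43 ± 0.09, 0.00802). The calls of Fcgr2b and Clec12a were kept in all 15 alternatives. That of Lair1 was lost without control replicate 3 (edgeR adjusted p = 0.0576), that of Cd200r1 without control replicate 1 (0.0644) and that of Sirpa without any 1 control library or DB2313 replicate 2 (up to 0.140). Pigr and Fcamr, which carry a related immunoglobulin-like domain, were too low to be tested.

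**Figure D4:**
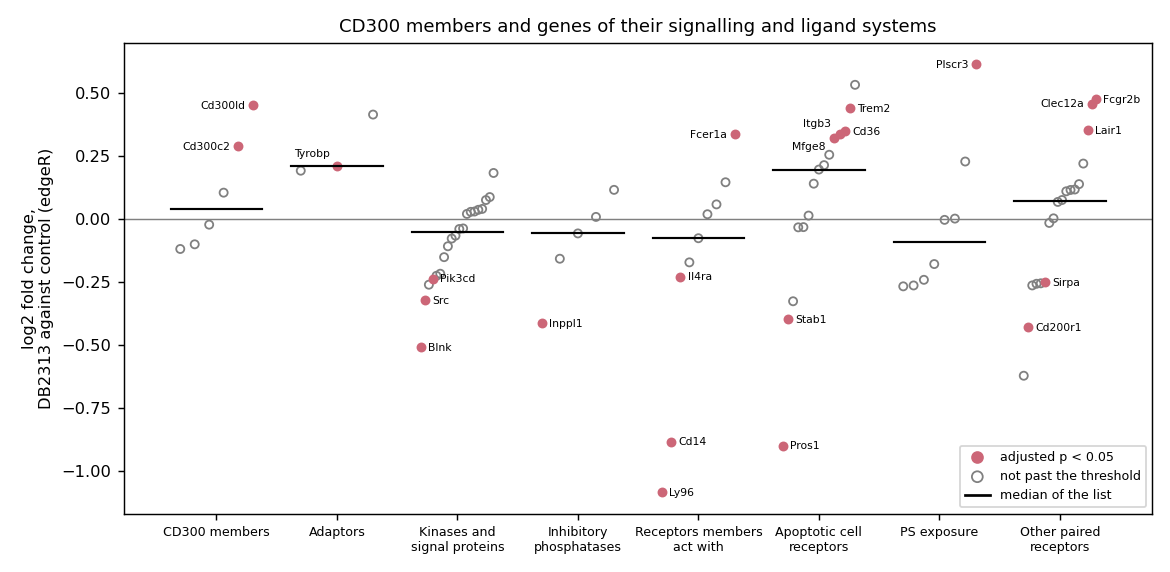
Log2 fold change, DB2313 against control (edgeR), of each tested gene in the CD300 set and in 7 lists of genes tied to it, with filled points at an adjusted p under 0.05 and a bar at the median of each list. The medians lie between -0.092 and 0.21, and Ly96, Pros1 and Cd14 are the lowest named points.

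The genes around the members were examined within 200 kb. Beside the cluster, 11 of 15 protein-coding neighbours passed the filter on low counts, Btbd17 among them (median 0.023), and none was called lower. The shares over all genes were 4.66% called higher and 5.94% lower. Kif19a, a kinesin, rose from 4.51 to 12.7 CPM (1.49 ± 0.17, edgeR adjusted p = 4.3e-05). Btbd17 had 11, 6 and 5 counts in control and 33, 34 and 28 with DB2313. Since it entered the fit through the DB2313 libraries, these counts are given as a description and not as a call. Rab37, in which Cd300lf lies, was at -0.049 ± 0.12 (0.853). Around Cd300lg, 7 of 14 neighbours were tested and 1 fell, the phosphatase Dusp3, from 64.0 to 50.2 CPM (-0.35 ± 0.11, edgeR adjusted p = 0.0498), which was lost with DESeq2 size factors (0.051), with library totals (0.092) and without any 1 library other than DB2313 replicate 3 (up to 0.231).

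**Figure D5:**
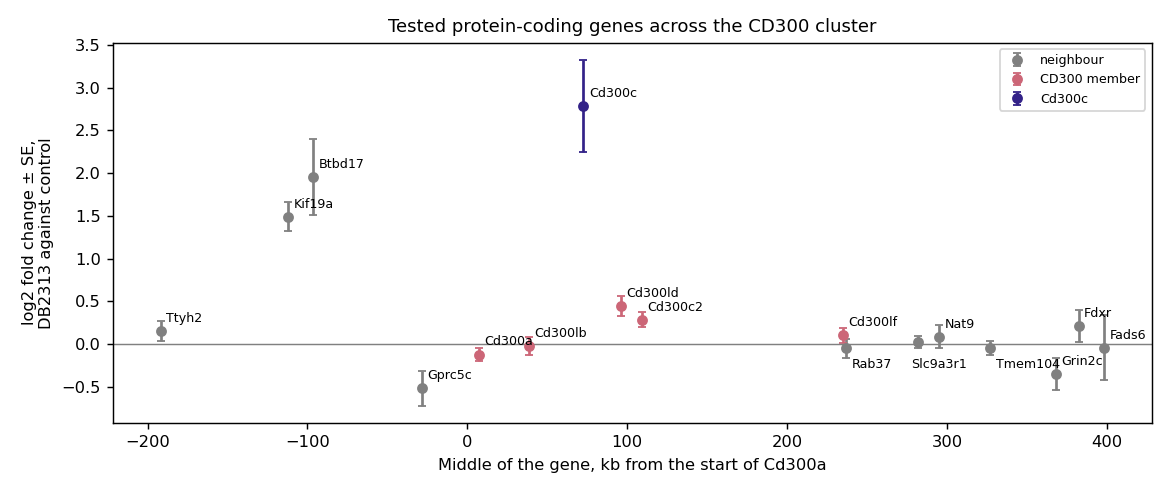
Log2 fold change ± SE, DB2313 against control (edgeR), of the tested protein-coding genes in and around the CD300 cluster, against the distance of their middle from the start of Cd300a in kb. Kif19a stands above 1 at one end, Btbd17 and Cd300c, which entered the fit through the DB2313 libraries, are drawn at their fitted values, and the members of the cluster lie between -0.12 and 0.45.

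The genes most like each member over the 6 libraries were found by Pearson's r of log2 CPM among 11156 protein-coding genes, as a description over 6 points that include both groups. For Cd300c2 these included Cdc16 (0.994) and Mff (0.992). For Cd300ld they were Kif23 (0.996), Tgtp2 (0.991) and Trim16 (0.991). For Cd300a they were Fam161a (0.991), Xpot (0.989) and Lonrf1 (0.985), and for Cd300lf Slf2 (0.997), Gm12185 (0.984) and Ndrg3 (0.984). For Cd300lb they were Gk5 (0.986), Abcg3 (0.985) and Sp3 (0.983), and for Cd300lg Apobr (0.992), Fancm (0.99) and Ccnt2 (0.987). With 6 libraries such values are common. Between 70 genes, for Cd300lg, and 286 genes, for Cd300ld, were above 0.9, and no member was among the 3 genes most like another.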

How the data were processed

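RNA-seq was done on 6 libraries of mouse dendritic cells, 3 control and 3 DB2313 by their labels. The count columns named no compound, and the SPI1 columns were read as the DB2313 libraries. The deposited table holds the authors' raw read counts, whole and not normalised, with the length of each gene. The submitters' processing notes name CASAVA 1.8, HISAT2 2.0.5 and featureCounts 1.5.0-p3, whereas the methods of the study name LifeScope. The genome build, strandedness and handling of reads with several matches are not given in the sources used here. GENCODE M21 held 54409 of the gene identifiers, 98.33% of them with identical start and end, and GRCm38 is therefore given as the build.

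Counts were tested with the quasi-likelihood test of edgeR 4.0.16 (R 4.3.3; TMM, filterByExpr, group as the only term), with Benjamini-Hochberg adjustment over 14174 genes and a threshold of 0.05, and the code was tested on simulated data. All adjusted p-values come from edgeR. SEs were derived from the F statistic. CPM values use TMM-scaled library sizes, and levels per kb use the deposited gene length. No molecular identifiers were used, so reads are not independent molecules. Whole transcripts were compared with blastn 2.17.0, and the identities are those of the matching stretches.

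The members and lists were chosen with earlier results of these data known. The text names all Cd300 rows, list genes past the threshold, adaptors and inhibitory phosphatases, neighbours within 200 kb and the 3 genes most like each member, of which 1 is not reported here. Other genes, Syk, Tlr4 and the markers among them, were named after their values were seen. Alternatives were DESeq2 1.42.0 and its size factors, limma-voom (limma 3.58.1), library totals, no filter on low counts, a minimum mean count of 10, an offset for gene length (lowess, span 0.3), the replicate number as a block, both together, and leaving out every library once. The labels gave no batch.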

Additional observations from a re-analysis of the deposited data

How the results depend on the processing

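In the 15 alternatives the log2 fold changes of Cd300a and Cd300lf kept their direction and stayed short of the threshold. Cd300c2 was no longer called with the length offset (0.22). Cd300lb turned sign with library totals (0.0012). With 1 library left out, values ranged from 0.24 to 0.35 for Cd300c2, 0.36 to 0.56 for Cd300ld, -0.14 to 0.074 for Cd300lb (0.074 without control replicate 1, 0.043 and 0.025 without DB2313 replicates 1 and 2), -0.35 to 0.061 for Cd300lg (0.061 without control replicate 1, 0.050 without DB2313 replicate 2) and -0.016 to 0.039 for Csk (-0.0069 without control replicate 3, -0.016 without DB2313 replicate 2). The number of members called higher, 2, was 1 with the length offset and 0 to 2 with 1 library left out, while the number called lower was 0 throughout. The DB2313 minus control difference in the log2 ratio of inhibitory to activating members was -0.21. It stayed between -0.24 and -0.16 in its 8 alternatives. Over all genes, 661 were called higher and 842 lower, against 328 and 411 without DB2313 replicate 2 and 1097 and 1311 without DB2313 replicate 3. The cause was not tested.

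Replicate numbers were not taken as pairs, since the correlations of same-numbered deviations were 0.00351, -0.0238 and -0.121. With the replicate block, Cd300c2 was at 0.29 (edgeR adjusted p = 0.0742) and 1 member was called higher. With the block and the length offset together it was at 0.22 (edgeR adjusted p = 0.127), again with 1 member called higher. Among the list genes and neighbours, the block ended the calls of Tyrobp (edgeR adjusted p = 0.165), Il4ra (0.134), Pik3cd (0.109), Sirpa (0.0882), Src (0.0578) and Dusp3 (0.0763), and the block with the length offset those of Tyrobp (0.471), Il4ra (0.0851), Pik3cd (0.0637) and Fcer1a (0.0554). Depth was limiting for Cd300e, which was too low to compare.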
